A study of Bos taurus with 24 samples.

Results

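The genes that make, read and remove cyclic AMP (cAMP) and cyclic GMP (cGMP) in the bovine oocyte were examined across meiotic maturation and season. Members were chosen by symbol alone: the receptors GPR3 and GPR12, the stimulatory G protein subunit GNAS, adenylyl cyclases (ADCY), the guanylyl cyclases NPR2 and GUCY1, phosphodiesterases (PDE), the catalytic and regulatory subunits of protein kinase A (PRKAC, PRKAR), its inhibitors (PKI), cGMP-dependent kinases (PRKG) and A-kinase anchoring proteins (AKAP). This gave 43 of the 11306 entries of the expression table. Of these, 33 had a mean of at least 1 RPM (the reads of a gene in every 1000000 reads of the library) over the 24 libraries and were tested. GPR3, PDE3A and PDE4D were not analysed here.

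A fully grown oocyte is held in prophase, with its nucleus visible as the germinal vesicle (GV), while cAMP is high. A constitutively active receptor signals through the stimulatory G protein to adenylyl cyclase, and protein kinase A then keeps the kinase CDK1 inactive. Cyclic GMP made by NPR2 in the surrounding cumulus cells passes into the oocyte through gap junctions and slows the breakdown of cAMP. When this supply ends, as on removal from the follicle, the oocyte proceeds to metaphase II (MII).

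The oocytes were aspirated from adult Angus-based beef cows, and part of them was matured in vitro with follicle-stimulating hormone and serum. The 24 libraries form 4 groups of 6: GV oocytes of spring (May), GV oocytes of summer (July), and MII oocytes of the same 2 months. The oocytes had been freed of cumulus cells and were sequenced in pools of 4. No treatment separated the seasons beyond the month of collection, so season and all that varied between the collections cannot be told apart. The MII oocytes had been cultured and the GV oocytes had not, so meiotic stage and culture cannot be told apart either. The authors aspirated the same set of cows in each month, matured part of each cow's oocytes and made each pool from a single animal. The groups can therefore share cows. The animal behind each library is not given in the labels, so this pairing could not be used. The tests treated the libraries as independent, and the p-values measure the spread between these libraries.

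Reads recovered from the deposited values (see the next paragraph) came to between 324650 and 28206775 per library, with a median of 3836531.5. Spring GV library 6 was the shallowest, and 1 read there was worth 3.08 RPM. Spring MII library 6 followed with 1028734 reads. The oocyte label was checked against 20 oocyte markers, of which 14 were listed, and their summed level was between 11372 and 22894 RPM in all libraries. Of 28 cumulus or granulosa cell markers, 25 were listed. Their sum was 617 to 4140 RPM in spring GV, 556 to 1413 RPM in summer GV, 428 to 1350 RPM in spring MII and 346 to 1112 RPM in summer MII oocytes. STAR alone had medians of 444, 373, 254 and 235 RPM in the same order, beside median sums of 731, 603, 618 and 619 RPM. By contrast, AMH, FSHR, FST and INHA each had group medians between 0 and 2.91 RPM. AMH and FSHR, defining markers of granulosa cells, had no read in any spring MII library, but AMH reached 90.4 RPM in spring GV library 3. FSHR also had no read in 4 of 6 spring GV, 5 of 6 summer GV and all summer MII libraries. Other listed markers were read in spring MII oocytes, such as INHBA at 1.07 to 8.75 RPM in every library. HAS2, an enzyme of the expanding cumulus matrix, was higher in MII oocytes by 2.30 (SE 0.34) in spring and 2.04 (SE 0.37) in summer on the log2 scale. VIM, a filament protein of somatic cells, was lower in MII oocytes of both seasons, by -2.64 (SE 1.21) and -1.11 (SE 0.48). The part of these cells in the values below was not tested.

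The scale of the deposited values bears on these genes in particular. The FPKM value of a gene, less the 0.01 that was added to every entry, was multiplied by the genomic span of the gene. The product was a whole multiple of 1 fixed step per library for 98.4% of 215855 values (within 0.1 of a whole number). Only values above 0 and under 1000 reads were counted. The step was fitted to the same values, so the 20% for random values is only a rough guide. The values had thus been divided by the span with introns and not by the exons. The members are long genes, with a median span of 76.8 kb against 19.7 kb for all entries, and PRKG1 spans 1438 kb. At a given number of reads, a longer span gives a lower FPKM value. In all, 16 of the 43 members (37.2%) never rose over 0.1 FPKM, against 15.7% of all entries. The median level was also lower, at 10.2 RPM for the members tested against 22.4 RPM for all genes tested, and the parts of span and of few reads in that share were not separated. Among the 16 were 8 members with a mean of at least 1 RPM, such as PRKG1 with a mean of 102 reads per library and PDE6A with 35.0 reads. For this reason the recovered reads were compared as RPM, which is a share of the library's reads and does not depend on the span. Levels are compared between libraries and not between genes.

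**Figure D1:**
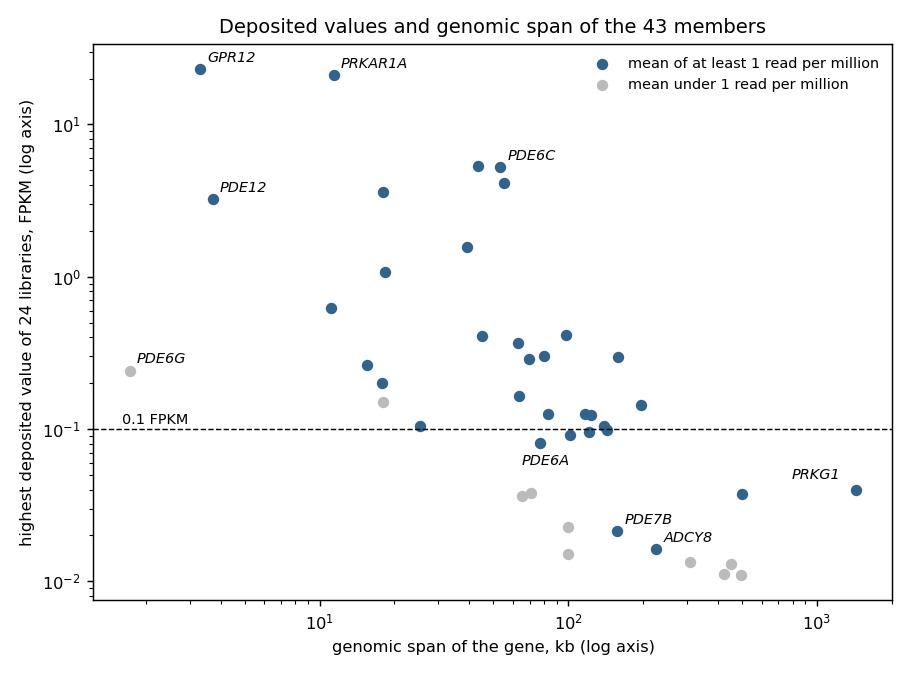
Highest deposited value of each of the 43 members over the 24 libraries (FPKM, log axis) against the genomic span of the gene (kb, log axis). Blue points are the 33 members with a mean of at least 1 RPM and grey points the other 10. Blue as well as grey points lie low, and 8 blue points lie under the dashed line at 0.1 FPKM.

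Most of the pathway did not pass the test between GV and MII oocytes. In spring, 5 of 33 members were called (more than 2-fold different at an unadjusted p under 0.05), while 37.5% of all 9452 genes tested were called. PDE5A and PRKAR2A were higher in MII oocytes, a direction called in 9.72% of all genes, and PDE12, PDE1B and PDE6A were lower, a direction called in 27.8%. In summer, 5 of 33 members were called, against 36.4% of all genes. AKAP2 was higher (background 4.83%), and ADCY5, ADCY7, PDE6A and PDE6C were lower (background 31.6%). PDE6A was the 1 member called in both seasons, and 9 members were called in at least 1. In spring 4 members and in summer 4 members had a Benjamini-Hochberg adjusted p under 0.05 in limma over all genes tested, whether or not they passed the fold threshold, while 32.7% and 40.1% of all genes had.

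The median member differed by -0.09 in spring and -0.07 in summer (log2, MII against GV), beside -0.29 and -0.38 for all genes tested. On log2(FPKM + 1) of the deposited values, where 27 members pass a filter at 0.1 FPKM, no member was called in any comparison, beside 11.8% of all genes in spring and 11.5% in summer between the stages, 0.0315% between seasons in GV and 0.042% in MII oocytes, and 0.21% for the season difference. On that scale a gene under 1 FPKM in every library cannot differ by 2-fold, whatever its reads. ADCY5 (at most 0.297 FPKM) and PRKAR2A (at most 0.288 FPKM), among others, therefore could not be called there. An unadjusted p under 0.05 on that scale was reached by 3 members in spring and 4 in summer, while 38.8% and 42.1% of all genes reached it. In each season 22 of the 33 members lay above the all-gene median. The position of 0 depended on the scaling. With quantile normalization the all-gene medians were 0.17 and 0.19, and 6 members were called higher and 1 lower in spring, and 9 higher and 1 lower in summer. All 9 members called in the main comparison kept the sign of their change under every scaling tried. A difference within 2-fold was bounded by the 95% interval for only 2 of 33 members in spring and 10 of 33 in summer, so a member that was not called may still have differed.

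**Figure D2:**
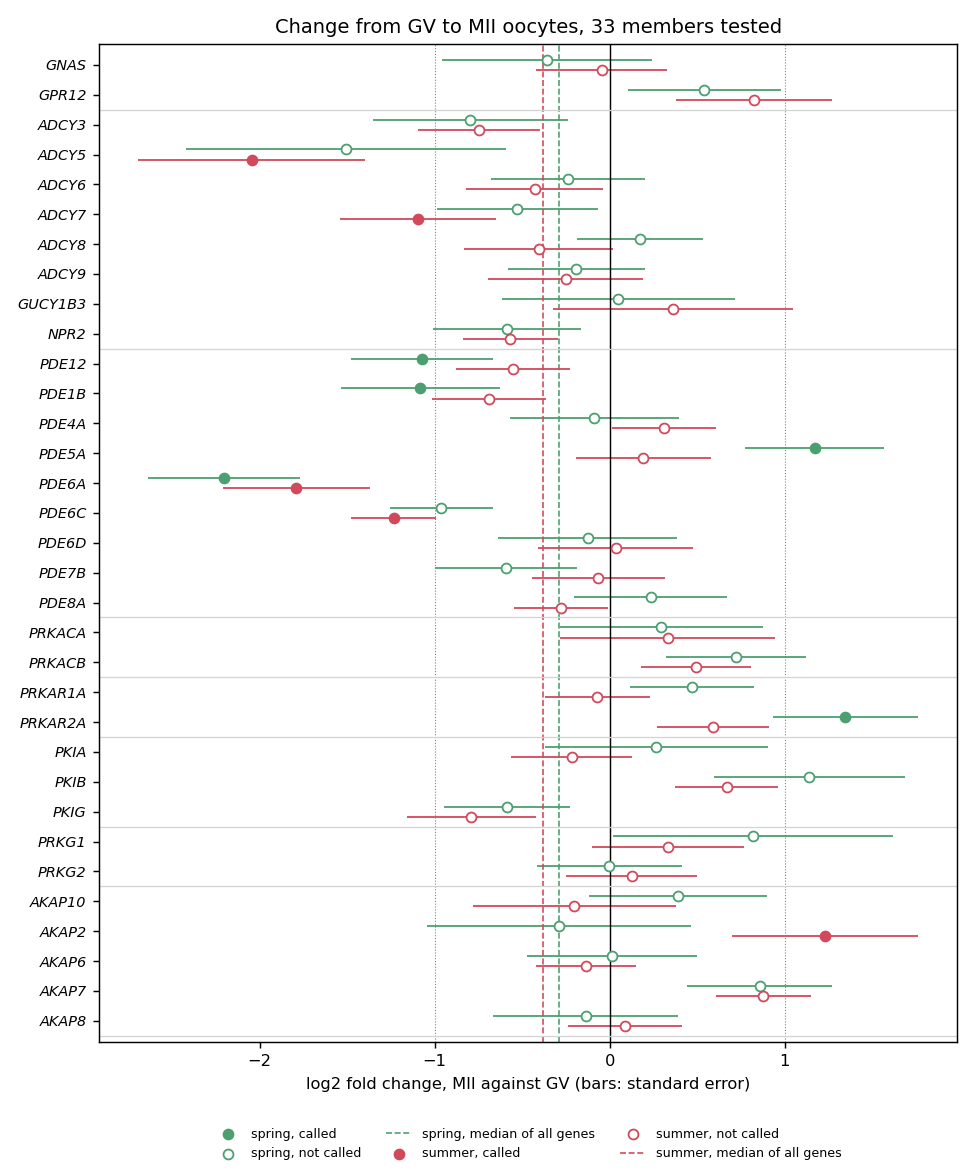
Log2 fold change of MII against GV oocytes for the 33 members tested, in spring (green) and in summer (red), with standard errors. Members are ordered by role from receptors at the top to anchors at the bottom, filled points were called, and dashed lines mark the median of all genes, -0.29 in spring and -0.38 in summer. PDE6A and ADCY5 lie farthest to the left and PRKAR2A in spring farthest to the right.

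At the start of the pathway, GPR12 and GNAS were both read in every library and neither was called. GPR12 is a constitutively active receptor that signals to adenylyl cyclase. Its level was 15.4 to 33.9 RPM in spring GV (median 19.3), 16.1 to 115 RPM in spring MII (23.1), 12.02 to 42.1 RPM in summer GV (19.8) and 16.5 to 79.5 RPM in summer MII oocytes (40.0). The GV and MII ranges overlapped in both seasons, with the highest libraries among the MII oocytes. The differences were 0.54 (SE 0.44) in spring and 0.83 (SE 0.45) in summer. The summer difference passed the call without summer GV library 2 (1.02), without summer MII library 2 (1.06) and without summer MII library 3 (1.03). It also passed with median-of-ratios scaling (1.14) and with quantile normalization (1.44), and the spring difference passed with quantile normalization (1.03).

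GNAS couples such receptors to adenylyl cyclase. It was at 9.88 to 15.8 RPM in 5 spring GV libraries and at 142 RPM in spring GV library 3, a single high library. The other groups ran from 8.55 to 16.8 RPM in summer GV (median 10.8), 6.34 to 41.8 RPM in spring MII (13.1) and 5.15 to 24.9 RPM in summer MII oocytes (9.61). The MII against GV differences were -0.36 (SE 0.60) in spring and -0.04 (SE 0.37) in summer, and the spring value was 0.21 without spring GV library 3. The same library held 621 RPM of AMH, FSHR, FST and INHA together, against 0.748 to 12.3 RPM in the other spring GV libraries, 1410 RPM of VIM and 476 RPM of the gap junction gene GJA1. These 4 markers were chosen from the 25 listed after their values were seen, and VIM and GJA1 were named on the same basis. Not every listed marker was high in spring GV library 3. There KRT8 was the lowest of its group, at 42.4 RPM, and KRT18 was at 19.0 RPM. Over all 25, spring GV library 3 held 3289 RPM, but spring GV library 6 held more, at 4140 RPM, most of it from the keratins KRT18 (2587 RPM) and KRT8 (468 RPM). GNAS was at 12.3 RPM in spring GV library 6, within the range of the others. In a pool, more cells of another type and more RNA per such cell cannot be told apart, and the part of these cells in the GNAS value was not tested.

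**Figure D3:**
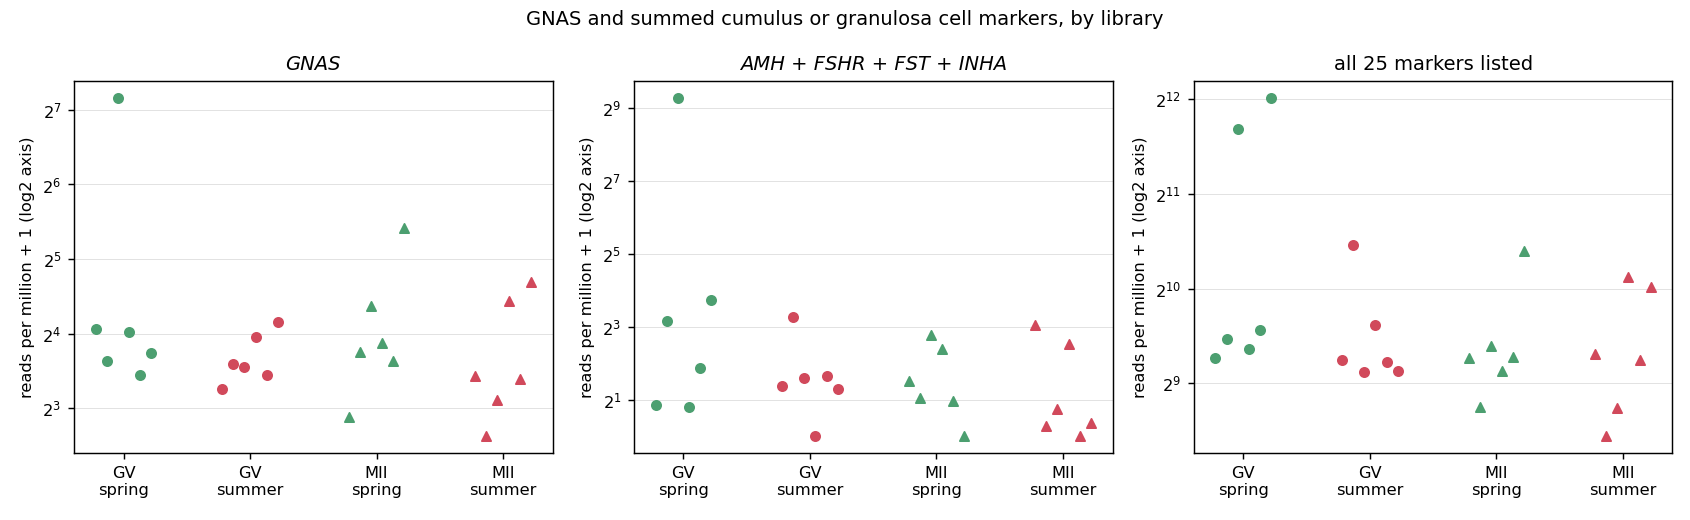
GNAS (left), the sum of 4 granulosa cell markers, AMH, FSHR, FST and INHA (middle), and the sum of all 25 cumulus or granulosa cell markers listed (right), in each library (RPM + 1, log2 axis). Spring libraries are green and summer libraries red, GV oocytes are circles and MII oocytes triangles. Spring GV library 3 stands alone in the left and middle panels, at 142 RPM of GNAS and 621 RPM of the 4 markers, while spring GV library 6 is the highest in the right panel, at 4140 RPM.

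Of the cyclases, 11 were listed and 8 tested. None was called in spring, beside 37.5% of all genes. In summer MII oocytes 2 adenylyl cyclases were called lower, a direction called in 31.6% of all genes. ADCY5 (chr1:68262422-68420955, minus strand, UMD3.1.1) makes cAMP and is inhibited by calcium. It was at 8.04 to 67.8 RPM in summer GV (median 21.0) and 0.858 to 16.8 RPM in summer MII oocytes (3.94). The 2 ranges overlapped, but 4 of the 6 MII libraries lay under the lowest GV library. The difference was -2.05 (SE 0.65, limma adjusted p = 0.0211, exact permutation p = 0.0217), and it was called whichever library was left out. With quantile normalization it was not called (-1.29).

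In spring, ADCY5 was at 0 to 120 RPM in GV (median 14.1) and 0.273 to 14.3 RPM in MII oocytes (5.99). Its spring difference of -1.51 (SE 0.91) was not called. The 0 came from spring GV library 6, where no read allows up to 9.24 RPM (3 reads), and without that library or with weights for depth the spring difference was called at -2.29 to -2.12. The difference between the seasons in this change was -0.54 (95% interval -2.94 to 1.87) and not called.

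ADCY7 (chr18:18745674-18809261, plus strand), another adenylyl cyclase, was at 6.09 to 14.0 RPM in summer GV (median 12.9) and 1.35 to 16.3 RPM in summer MII oocytes (5.47). One MII library was above all GV libraries and the other 5 were under 5 of the 6 GV libraries. The difference was -1.10 (SE 0.45, limma adjusted p = 0.0642), and it was not called without summer GV library 1 (-1.05), without summer GV library 4 (-1.04), without summer MII library 2 (-0.90) or without summer MII library 3 (-0.83). Scaling ended the call as well, at -0.28 with quantile normalization, -0.83 with median-of-ratios scaling and -0.905 with scaling to the deposited total. In spring the difference was -0.53 (SE 0.46).

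ADCY3 and ADCY9, both reported in mammalian oocytes, were read at low levels. ADCY3 had 0 to 20 reads per library, with medians of 1.03 RPM in spring GV, 0.660 RPM in spring MII, 1.10 RPM in summer GV and 0.379 RPM in summer MII oocytes. It overlaps CENPO on the other strand, and 8 of its 24 values were not whole reads, so its level is uncertain. Its differences were -0.80 (SE 0.56) in spring and -0.75 (SE 0.35) in summer. ADCY9 had 1 to 46 reads, with medians of 1.44, 1.64, 2.02 and 2.55 RPM in the same order, and its differences were -0.19 (SE 0.39) and -0.25 (SE 0.44). No group of either gene was clear of another.

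NPR2, the receptor guanylyl cyclase known from cumulus cells, was at 1.25 to 6.16 RPM in spring GV (median 1.88), 0 to 2.92 RPM in spring MII (1.27), 0.971 to 4.32 RPM in summer GV (2.03) and 0.889 to 1.39 RPM in summer MII oocytes (1.19). It was not called, at -0.59 (SE 0.42) and -0.57 (SE 0.27). ADCY6, ADCY8 and GUCY1B3, a subunit of soluble guanylyl cyclase, lay between -0.43 and 0.36 and were not called. GUCY1B3 was called higher in summer MII oocytes without summer GV library 2, which held 36.2 RPM, at 1.01. ADCY1, a cyclase known from neurons, had 14 reads over the 12 GV libraries and none over the 12 MII libraries, which allows up to 0.0659 RPM there.

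Of 14 genes with a phosphodiesterase name, 9 were tested, and 4 of 9 were called in spring and 2 of 9 in summer, beside the 37.5% and 36.4% of all genes. PDE6A and PDE6C encode catalytic subunits of the cGMP phosphodiesterases of rods and cones. PDE6A was called lower in MII oocytes of both seasons and PDE6C in summer. PDE6A (chr7:63190542-63267312, minus strand) was at 3.08, 5.53, 9.58, 9.73, 10.8 and 13.2 RPM in the spring GV libraries. The spring MII libraries held 0, 0.255, 1.09, 1.603, 1.64 and 1.94 RPM. The groups did not overlap, as was true of 3 of the 33 members in spring (PDE6A, PDE12 and PRKAR2A) and 15% of all genes. The difference was -2.20 (SE 0.43, limma adjusted p = 0.0014, exact permutation p = 0.00216, the smallest that 6 against 6 libraries allow).

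In summer, PDE6A was at 2.75 to 13.4 RPM in GV (median 11.4) and 0.593 to 3.90 RPM in MII oocytes (2.18). Only summer GV library 2 reached into the MII range. No member was free of overlap in summer, against 19.9% of all genes. The difference was -1.79 (SE 0.42, limma adjusted p = 0.00376, exact permutation p = 0.00866). PDE6A was called in both seasons whichever library was left out, and under every alternative that tested it except quantile normalization in summer (-0.98). It never exceeded 0.0809 FPKM, so the filter at 0.1 FPKM leaves it out.

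PDE6C (chr26:14956031-15009229, plus strand) was at 385 to 640 RPM in spring GV (median 525), 114 to 386 RPM in spring MII (285), 242 to 539 RPM in summer GV (495) and 153 to 260 RPM in summer MII oocytes (173). In summer 5 of the 6 GV libraries were above all MII libraries, and summer GV library 2 was the exception. With 117 to 15192 reads per library, it was the member with the most reads behind its values. The difference was -1.23 in summer (SE 0.24, limma adjusted p = 0.00101, exact permutation p = 0.00433), called whichever library was left out. With median-of-ratios scaling it was -0.91, under 2-fold. In spring it was -0.96 (SE 0.29, limma adjusted p = 0.0208), just under 2-fold, and it was called without spring GV library 5 or 6 or spring MII library 2 or 4, at -1.069 to -1.003.

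PDE5A (chr6:6874055-7070188, plus strand), which hydrolyses cGMP and is the target of sildenafil, moved the other way. It was at 6.16 to 21.0 RPM in spring GV (median 13.8) and 17.5 to 46.1 RPM in spring MII oocytes (30.7). The upper 3 GV libraries reached the lowest MII library, and the other 5 MII libraries were above all GV libraries. The difference was 1.17 (SE 0.40, limma adjusted p = 0.0335, exact permutation p = 0.013). Without spring GV library 6, which had 2 PDE5A reads, it was 0.99, under 2-fold. In summer the GV libraries lay close together, at 16.3 to 20.8 RPM (median 18.1), while the MII libraries spread from 9.48 to 47.4 RPM (24.2), and the difference was 0.19 (SE 0.38). The difference between the seasons was -0.98 (SE 0.55), and it passed the call only without summer MII library 2 (-1.21).

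PDE1B (chr5:25633162-25658535, minus strand), a calcium- and calmodulin-activated enzyme, was at 0 to 5.85 RPM in spring GV (median 1.68). In spring MII oocytes 4 of 6 libraries had no read, which allows up to 0.728 to 2.92 RPM in each, and the highest held 1.17 RPM. The difference was -1.08 (SE 0.45, limma adjusted p = 0.0773) on 0 to 19 reads per library, and it was lost without any 1 of spring GV libraries 2, 4 and 5 or spring MII libraries 3 to 6 (-1.03 to -0.79), with quantile normalization (-0.54) and with scaling to the deposited total (-0.97). In summer it was -0.69 (SE 0.33).

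PDE12 (chr22:44179961-44183680, minus strand) carries the family name but degrades the tails of mitochondrial RNA rather than cyclic nucleotides. It was at 7.06 to 21.6 RPM in spring GV (median 7.73) and 1.94 to 6.81 RPM in spring MII oocytes (3.61), without overlap. The difference was -1.07 (SE 0.40, limma adjusted p = 0.0522, exact permutation p = 0.00216). It fell under 2-fold without spring GV library 6 (-0.84), spring MII library 2 (-0.9973) or spring MII library 6 (-0.93). It was not called with quantile normalization (-0.28), median-of-ratios scaling (-0.97) or scaling to the deposited total (-0.85). In summer it was -0.55 (SE 0.33).

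PDE8A, a cAMP-specific enzyme, was at 3.08 to 25.9 RPM in spring GV (median 17.8), 12.6 to 22.9 RPM in spring MII (15.5), 13.8 to 20.9 RPM in summer GV (16.2) and 9.56 to 21.0 RPM in summer MII oocytes (13.1). The groups overlapped throughout, with the lowest value resting on 1 read. Its differences were 0.23 (SE 0.44) and -0.28 (SE 0.27). PDE4A and PDE7B, which also prefer cAMP, and PDE6D, a carrier of prenylated proteins, were not called, at -0.59 to 0.31. PDE1A, PDE2A, PDE4B, PDE6G and PDE11A had under 1 RPM on average and were not tested.

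**Figure D4:**
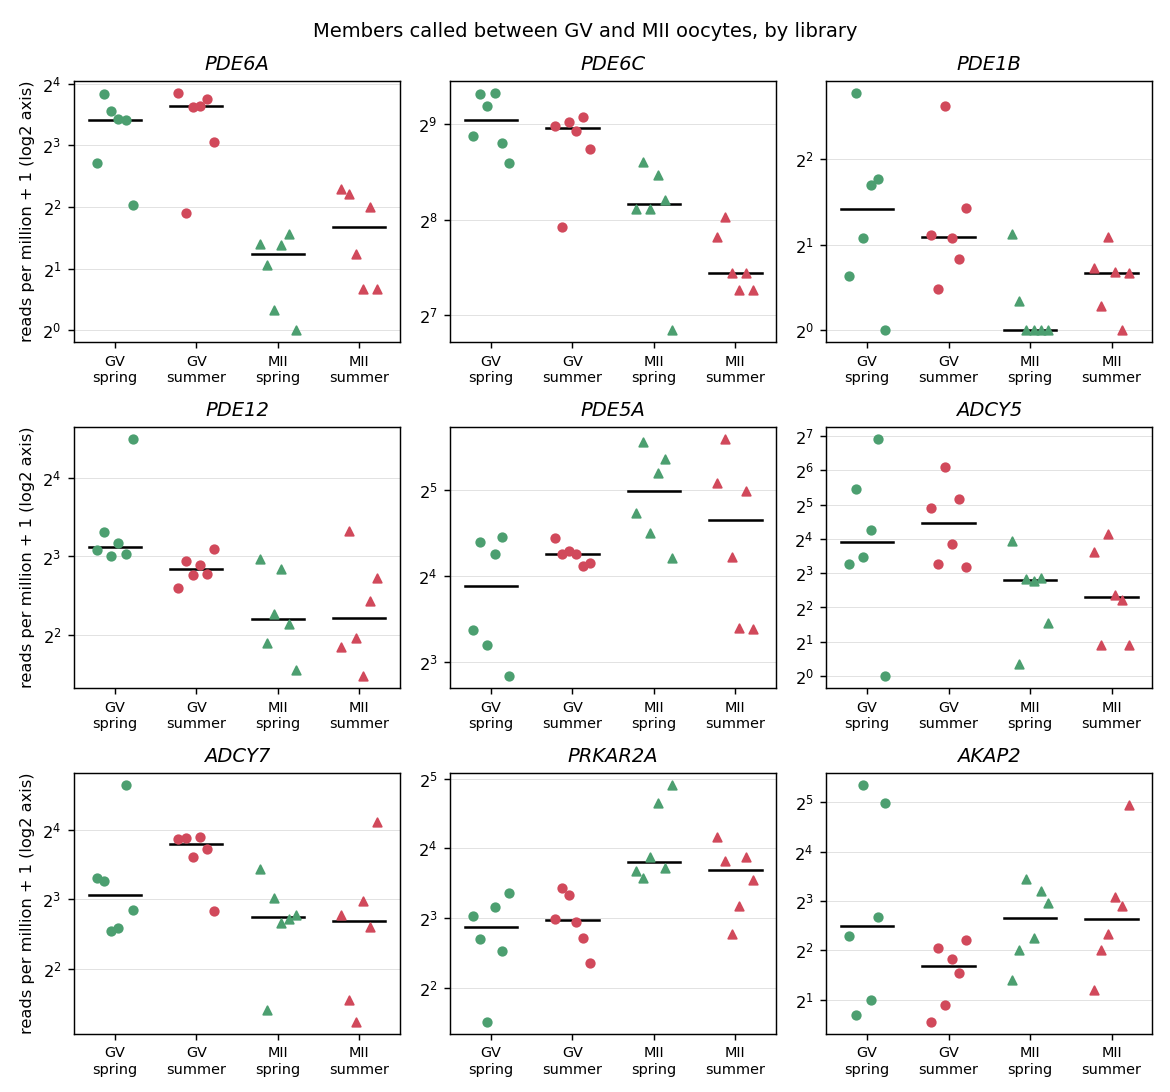
The 9 members called between GV and MII oocytes in at least 1 season, as RPM + 1 (log2 axis) in each library, with the group median as a bar. Spring libraries are green and summer libraries red, GV oocytes are circles and MII oocytes triangles. PDE6A is lower in MII oocytes of both seasons and PDE6C in summer, and PDE5A and PRKAR2A are higher in spring MII than in spring GV oocytes.

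Among the subunits of protein kinase A, PRKAR2A was called. This regulatory subunit (chr22:51658044-51727841, plus strand) binds cAMP and is held in place by anchoring proteins. It was at 1.86, 4.79, 5.54, 7.19, 7.98 and 9.24 RPM in the spring GV libraries. The spring MII libraries held 10.9, 11.7, 12.1, 13.7, 24.04 and 29.2 RPM. All MII libraries were above all GV libraries. The difference was 1.35 (SE 0.42, limma adjusted p = 0.0213, exact permutation p = 0.00216), and it was called whichever library was left out. In summer the groups overlapped, at 4.14 to 9.83 RPM in GV (median 6.83) and 5.83 to 16.9 RPM in MII oocytes (11.9), and the difference was 0.59 (SE 0.32). The difference between the seasons was -0.75 (SE 0.51) and not called.

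The other subunits were not called in either season in the main comparison. PRKAR1A, a second regulatory subunit, was at 71.4 to 216 RPM in spring GV (median 117), 92.7 to 364 RPM in spring MII (168), 116 to 305 RPM in summer GV (137) and 109 to 295 RPM in summer MII oocytes (141). Its differences were 0.47 (SE 0.36) and -0.07 (SE 0.30). The catalytic subunit PRKACA was at 2.23 to 12.3 RPM in spring GV (median 3.72), 1.91 to 29.2 RPM in spring MII (3.71), 1.39 to 17.3 RPM in summer GV (2.11) and 1.29 to 18.1 RPM in summer MII oocytes (2.86). All 4 groups of both genes overlapped. PRKACA differed by 0.30 (SE 0.58) and 0.33 (SE 0.61), and the summer value was called with quantile normalization (1.23). PRKACB, the other catalytic subunit, was at 4.15 to 18.5 RPM in spring GV (median 6.53), 8.01 to 18.3 RPM in spring MII (13.4), 6.26 to 8.77 RPM in summer GV (7.85) and 6.27 to 23.8 RPM in summer MII oocytes (10.4). It differed by 0.72 (SE 0.40) and 0.49 (SE 0.31), and both values were called with quantile normalization (1.43 and 1.30). PRKAR2B had 0 to 17 reads per library and was not tested, with group medians of 0.424, 0.540, 0.358 and 0.148 RPM in spring GV, spring MII, summer GV and summer MII oocytes.

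The 3 inhibitors of protein kinase A were tested and none was called, beside 37.5% of all genes in spring and 36.4% in summer. PKIA was at 2.15 to 33.9 RPM in spring GV (median 9.12), 4.46 to 59.3 RPM in spring MII (10.5), 7.17 to 22.4 RPM in summer GV (12.1) and 6.87 to 19.1 RPM in summer MII oocytes (9.49). The ranges covered each other, and the differences were 0.27 (SE 0.64) and -0.22 (SE 0.34). PKIB differed by 1.14 (SE 0.55, exact permutation p = 0.0671) in spring and 0.67 (SE 0.30, exact permutation p = 0.039) in summer. The spring value of PKIB was called without spring GV library 1 or 3 or spring MII library 1 or 2. It was also called in the fit of all 4 groups together and with quantile normalization, median-of-ratios scaling or scaling to the deposited total. These spring values were 1.14 to 1.64. The summer value of PKIB was called with quantile normalization and with weights for depth (1.115 to 1.497). PKIG differed by -0.59 (SE 0.36) and -0.79 (SE 0.37). The cGMP-dependent kinases PRKG1 and PRKG2 lay between -0.00 and 0.82, and neither was called. CSTF2T lies within the span of PRKG1 and PKIA within the listed span of POLR2K, each on the other strand, and without strand such reads cannot be told apart.

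Of the 6 anchoring proteins, 5 were tested and AKAP2 was called in summer, beside 36.4% of all genes. AKAP2 (chr8:101361501-101406329, plus strand) was at 0.462 to 3.65 RPM in summer GV (median 2.22) and 1.30 to 29.9 RPM in summer MII oocytes (5.25). In all, 4 MII libraries were above all GV libraries. The difference was 1.23 (SE 0.53, limma adjusted p = 0.0797), and it was lost without any 1 of summer GV libraries 1, 3 and 5 or summer MII libraries 4 to 6 (0.79 to 1.24), and in the fit of all 4 groups together. In spring GV oocytes AKAP2 ranged from 0.616 to 40.2 RPM, the highest in libraries 3 and 6, and the spring difference was -0.29 (SE 0.75).

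AKAP7, an anchor at membranes, had the narrowest intervals of this group in summer. It was at 6.15 to 12.1 RPM in summer GV (median 8.34) and 11.7 to 20.6 RPM in summer MII oocytes (18.3), so that a single GV library reached the lowest MII library. The difference of 0.88 (SE 0.27, limma adjusted p = 0.0186, exact permutation p = 0.00433) was under 2-fold and not called. It was called with quantile normalization, median-of-ratios scaling and scaling to the deposited total (1.07 to 1.64). In spring it was 0.86 (SE 0.41, exact permutation p = 0.0433) and not called. The spring difference was called without spring GV library 4, with quantile normalization and with scaling to the deposited total (1.11 to 1.49). AKAP6, AKAP8 and AKAP10 lay between -0.20 and 0.39 and were not called.

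Season was addressed by comparing summer with spring oocytes at each stage. No member was called in GV oocytes, where 0.846% of all genes were called, or in MII oocytes, where 0.508% were. In limma, no member had an unadjusted p under 0.05 in GV oocytes and 1 had in MII oocytes, beside 2.23% and 2.5% of all genes. That member was PKIG, at 15.6 to 43.2 RPM in spring MII (median about 20) and 7.08 to 24.9 RPM in summer MII oocytes (11.9), with a difference of -0.78 (SE 0.36) and an adjusted p of 1. By the exact permutation test, 1 member in GV and 2 members in MII oocytes had an unadjusted p under 0.05, beside 3.79% and 3.11% of all genes. In GV oocytes this was PDE12, at 7.06 to 21.6 RPM in spring and 5.09 to 7.55 RPM in summer, with a difference of -0.50 (exact permutation p = 0.00866). In MII oocytes PKIG was joined by PDE4A, which differed by -0.285 (exact permutation p = 0.0368). No member had groups without overlap, against 0.254% of all genes in GV and 0.138% in MII oocytes. The member medians were 0.04 in GV and -0.18 in MII oocytes, beside 0.06 and -0.08 for all genes.

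For genes tied to the arrest, the summer against spring differences in GV oocytes were 0.04 (95% interval -0.72 to 0.81) for GPR12, 0.22 (-0.68 to 1.12) for PDE8A, 0.36 (-0.33 to 1.06) for PRKAR1A, 0.05 (-0.73 to 0.83) for PRKACB and -0.31 (-1.43 to 0.81) for PRKACA. None was called, and 3 of these 5 intervals reach past a 2-fold change. GNAS differed by -0.69 (SE 0.55), and by -0.12 without spring GV library 3. AKAP2 had the lowest difference, -1.32 (SE 0.75), with spring GV libraries 3 and 6 high, and was called without spring GV library 2 or 4 (-1.75 to -1.69). In GV oocytes 6 of 33 members, and in MII oocytes 13 of 33, had an interval within 2-fold.

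**Figure D5:**
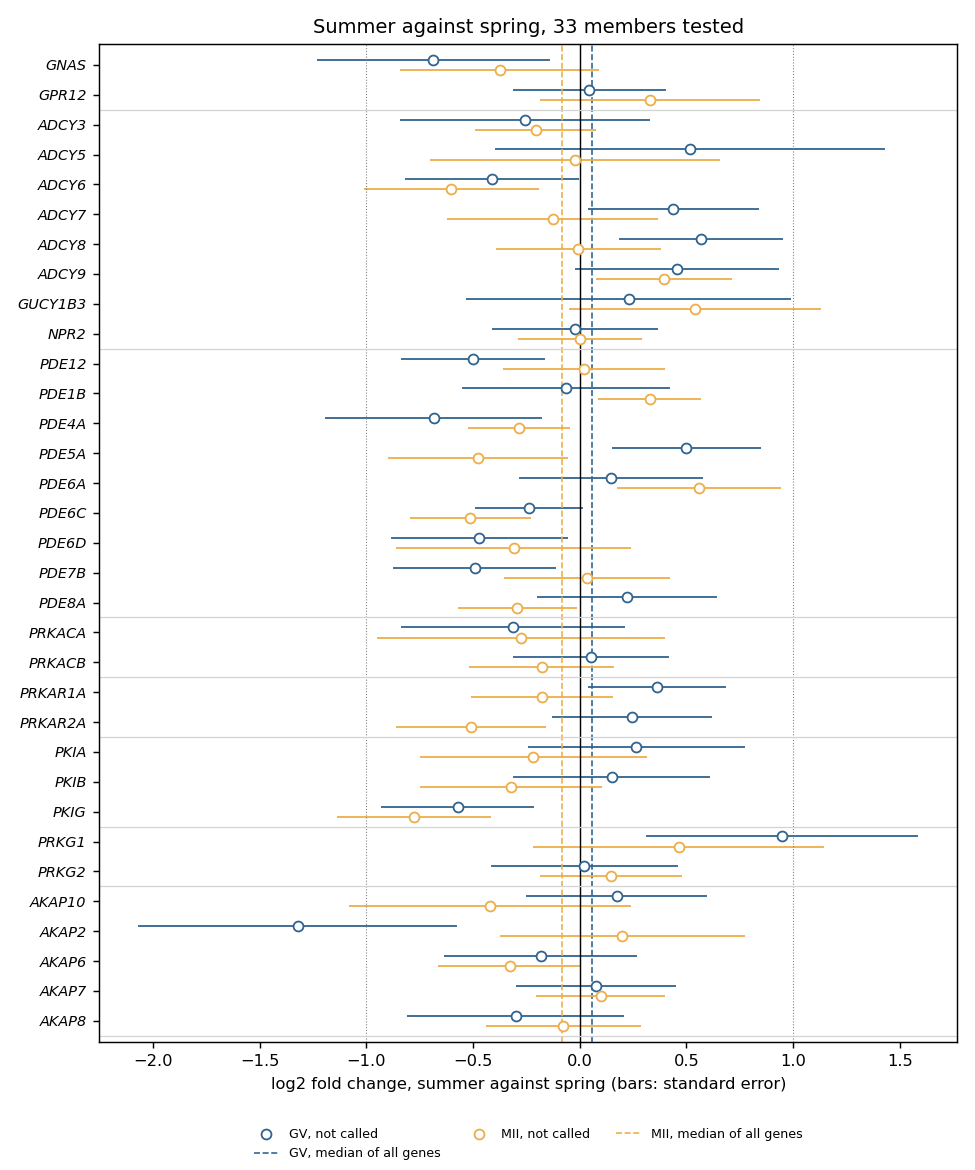
Log2 fold change of summer against spring oocytes for the 33 members tested, in GV (blue) and MII oocytes (yellow), with standard errors. No point is filled, since no member was called, and dashed lines mark the all-gene medians of 0.06 in GV and -0.08 in MII oocytes. AKAP2 in GV oocytes lies farthest to the left, at -1.32.

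Whether the change from GV to MII differed between the seasons was tested over all 24 libraries. No member was called, beside 1.84% of all genes. The member differences ran from -0.98 (PDE5A) to 1.52 (AKAP2), with a median standard error of 0.59. The smallest unadjusted limma p was 0.0845, for PDE5A. No member had an unadjusted p under 0.05, beside 2.53% of all genes. Only 1 member had a 95% interval within 2-fold, and the intervals of the others reached past it.

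The rest of the pathway was read from 4 lists of genes. Of 24 G proteins and receptor regulators tested, none was called higher and 7 lower in spring MII oocytes, and 3 higher and 9 lower in summer. RGS10 and RGS3, which switch G proteins off, were lower in both seasons, RGS10 by -3.06 (SE 0.38) and -2.66 (SE 0.32) and RGS3 by -2.26 (SE 0.52) and -2.66 (SE 0.45). GRK2, a receptor kinase, was lower by -1.64 (SE 0.51) and -1.89 (SE 0.36). The list medians were -0.35 and -0.53, beside all-gene medians of -0.29 and -0.38.

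Of 12 targets of cAMP and cGMP other than protein kinase A, none was called higher and 3 lower in spring, and 2 higher and 3 lower in summer. CREB1, a transcription factor phosphorylated by protein kinase A, was lower by -1.79 (SE 0.41) and -1.92 (SE 0.35). RAPGEF3, an exchange factor that cAMP activates directly, was lower by -1.43 (SE 0.65) and -2.37 (SE 0.44). Of 19 opposing phosphatases and cell cycle targets, 3 were higher and 3 lower in spring, and 2 higher and 4 lower in summer. Of 9 genes of cGMP supply, gap junctions and AMP-activated kinase, none was higher, 3 were lower in spring and 4 in summer. PRKAG1, a regulatory subunit of AMP-activated kinase, was lower by -2.25 (SE 0.41) and -2.39 (SE 0.26). For all 4 lists, the share called lower ran beside 27.8% of all genes in spring and 31.6% in summer. The share called higher ran beside 9.72% and 4.83%. No gene of the 4 lists was called between the seasons at either stage.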

How the data were processed

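RNA of pools of 4 denuded oocytes was amplified by Smart-seq2 and sequenced as paired reads. The authors removed adaptors and poor bases, mapped with STAR 2.5.3a against UMD3.1.1 and deposited FPKM values; every library was scaled to the same total (86768.1 to 86768.2) and raised by 0.01, as read from the values. The fit had been planned on log2(FPKM + 1). Because the values turned out to be divided by genomic span, reads were recovered as (value - 0.01) x span / step, and log2(RPM + 1) was used, with genes of a mean of at least 1 RPM (9452). Whether intron reads were counted is not given in the sources used here. Groups were compared pairwise with limma 3.58.1 (R 4.3.3, eBayes with trend, two-sided), and the season difference over all 24 libraries. Exact permutation tests (two-sided, all assignments of 6 and 6 libraries) were run in Python 3.11.15. A call is an unadjusted p under 0.05 and a fold over 2. Limits for 0 reads are 3 reads and cover counting error only. The steps were tested on simulated data. Alternatives changed the pseudocount, filter, scaling, weights, threshold, libraries and replicate block. The members and lists were chosen with earlier results of these data known. Named are the called members, the listed genes of arrest (GPR12, GNAS, ADCY3, ADCY9, PDE8A, PRKACA, PRKACB, PRKAR1A, PRKAR2B, PKIA, NPR2), and the 6 called genes of the other lists with the smallest p; others were chosen after their values were seen. Symbols at 2 loci (29, no member) stayed separate.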

Additional observations from a re-analysis of the deposited data

Results flagged for a closer look

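In 24 of 132 checks of a tested member within a group of 6 libraries, 1 library lay far from the other 5 (its gap to the nearest of them, as a share of the group's range, was over Dixon's 95% limit); chance gives about 6.6. Spring GV library 6 accounted for 6 of them, summer GV library 2 for 5 and spring MII library 6 for 4, and the first and the last of these are the libraries with the fewest reads. Over all genes tested, spring GV library 6 was the highest of its group in 34.5% and the lowest in 33.65%, beside 39.4% and 36.4% of members. For summer GV library 2 the shares were 38.2% and 32.7%, beside 33.3% and 30.3% of members. For spring MII library 6 they were 31.7% and 32.65%, beside 36.4% and 33.3%. The check was not run over all genes, so its count is not shown to be particular to the members.

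In spring GV library 6, ADCY3 was at 17.2 RPM, NPR2 at 6.16 RPM, PDE12 at 21.6 RPM and PRKACA at 12.3 RPM, all above the other libraries and on 2 to 7 reads. PDE8A was at 3.08 RPM there on 1 read, and PRKG1 at 0 RPM. In spring MII library 6, PDE6C was at 114 RPM, PDE6D at 37.9 RPM, PRKG1 at 0.972 RPM and ADCY8 at 0 RPM, all below the others. In summer GV library 2, ADCY9 was at 13.4 RPM and GUCY1B3 at 36.2 RPM, above the others, and PDE6C at 242 RPM, PRKG2 at 4.32 RPM and ADCY8 at 0 RPM, below them.

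In the other libraries, GNAS was at 142 RPM in spring GV library 3, ADCY7 at 24.2 RPM in spring GV library 5 and AKAP7 at 22.4 RPM in spring GV library 4. ADCY7 was at 6.09 RPM in summer GV library 6, under the other 5. PDE1B was at 1.17 RPM and PKIG at 43.2 RPM in spring MII library 1. GUCY1B3 was at 17.8 RPM in summer MII library 2, AKAP8 at 38.8 RPM in summer MII library 4 and PKIB at 1.78 RPM in summer MII library 6.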

How the results depend on the processing

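The counts of called members moved with the scale and the scaling (main comparison: spring 2 higher and 3 lower, summer 1 higher and 4 lower). On log2(FPKM + 1) with the filter at 0.1 FPKM, chosen after seeing the data as an alternative although it was the scale first planned, 0 of 27 members were called in any direction or comparison; without the fold threshold 3 members in spring and 4 in summer had an unadjusted p under 0.05 in limma, beside 38.8% and 42.1% of all genes. With a mean of at least 1 FPKM only 5 members were left, with 0 higher and 0 lower in spring and 0 higher and 1 lower in summer. Quantile normalization gave 6 higher and 1 lower in spring and 9 and 1 in summer, scaling to the deposited total 4 and 1 in spring and 2 higher in summer, and median-of-ratios scaling 3 higher and 2 lower in summer. Adjusted p in place of unadjusted p left 1 lower in spring and 0 higher in summer, and all 4 groups in one fit 0 higher in summer. Voom weights gave 2 higher in summer, and leaving out spring GV 6, spring MII 6 and summer GV 2 together gave 3; these and the deposited total were also chosen after seeing the data. On log2(FPKM + 1) a gene under 1 FPKM in every library cannot differ by 2-fold and so cannot be called. Apart from that limit, the cause of these changes was not tested.

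When each library was left out in turn, there were 1 to 3 members higher and 1 to 4 lower in spring, 0 to 3 higher and 3 to 4 lower in summer, 0 to 1 between seasons in GV oocytes, 0 in MII oocytes and 0 to 1 for the season difference. Of all genes, 919 were called higher and 2623 lower in spring and 457 and 2984 in summer; quantile normalization gave 1885 and 1696, and 1775 and 1733, the deposited total 1513 and 2140 in spring and 869 and 2596 in summer, and median-of-ratios scaling 1223 and 2439 in summer. For 50 values of single members (the 10 calls, and 10 genes of arrest in the 4 comparisons of groups), 1240 alternative values were compared. Of these, 1153 stayed on their side of the threshold, called values with the same sign and uncalled values within 1 standard error of the main value. The sign of values that stayed uncalled was not compared. Of the rest, 48 were no longer called, 11 became called, 28 moved by more than 1 standard error and none reversed a call. Over all members and comparisons, 44 calls were gained under some alternative, in 19 pairs of a member and a comparison.

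Libraries share replicate numbers, and the labels do not say whether a number marks an animal. Over 24 pairs of the same number the correlations of deviations ran from -0.304 to 0.629, and 12 were over 0.1. In 9 of the 24 the library correlated best with its own number. These were 2 between GV and MII oocytes in spring, 3 in summer, 0 between the seasons in GV and 4 in MII oocytes. Whether the numbers pair the libraries was not settled, and the main fit did not use them. With the replicate block the members called were 2 higher and 3 lower in spring, 1 and 4 in summer, and 0 in the other comparisons.

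With a median of 3836531.5 reads per library, members under about 1 RPM rest on a few reads and were not tested.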
